A study of Homo sapiens with 11 samples.

Results

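ATF4 and 29 genes of the response it controls were followed in pancreatic cancer cells given small interfering RNA (siRNA) against MYEOV. The 30 genes were taken by symbol from the 58735 genes of the deposited count tables. They comprised 6 regulators, 5 stress effectors, 6 amino acid transporters, 1 tRNA export factor and 12 cytosolic tRNA synthetases. All 30 matched 1 Ensembl identifier each in GENCODE release 29, whose symbols are used.

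ATF4 is a transcription factor made when cells lack amino acids or carry unfolded protein in the endoplasmic reticulum. Kinases that sense these states phosphorylate the initiation factor eIF2, which slows translation of most mRNAs and favours translation of the ATF4 mRNA, so that the level of that mRNA is not a measure of the protein. ATF4 pairs with C/EBP proteins at composite DNA elements and raises genes for amino acid synthesis, import and charging onto tRNA. In pancreatic tumour cells, where growth draws heavily on amino acids, the pathway is known as a means of coping with their shortage.

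The cells were AsPC-1 and PANC-1, human pancreatic cancer lines, from which 11 poly(A) libraries were sequenced. AsPC-1 cells, a line from ascites of a pancreatic adenocarcinoma, were grown in RPMI 1640 and gave 2 control and 3 MYEOV siRNA libraries. PANC-1 cells, a line from a pancreatic ductal carcinoma, were grown in DMEM and gave 3 control and 3 MYEOV siRNA libraries. Both media held 10% foetal bovine serum, and siRNA cells were collected 48 hours after transfection with Lipofectamine 3000. Neither line carries a stated genetic change made for the study. Controls are labelled wild type and untreated, but a negative control siRNA appears in the protocol, which leaves their treatment unsettled. If they were untreated, MYEOV siRNA and transfection itself cannot be told apart. A pair of MYEOV siRNAs was used per the protocol, and the labels do not tell whether a library number stands for a replicate or for an siRNA. Separate cultures are not mentioned in any label, so the spread behind the p-values is that between these libraries and may be technical.

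Library totals ran from 12113093 to 15066456 counts. Levels are given as CPM, counts scaled to library size, on 1 scale over all 11 libraries. MYEOV stood at 131 and 129.7 CPM in the AsPC-1 controls and at 42.9, 50.7 and 48.1 CPM in its siRNA libraries. In PANC-1 it stood at 75.1, 68.6 and 64.4 CPM in controls and at 37.7, 35.8 and 39.8 CPM after siRNA. The epithelial markers KRT8, KRT18, KRT19 and EPCAM summed to between 17990 and 18860 CPM in AsPC-1 and to between 1920 and 2524 CPM in PANC-1, where EPCAM averaged 5.88 CPM in controls. Of 5 leukocyte markers, CD3E was at 0 in every library, and the list summed to at most 3.37 CPM. Of 6 fibroblast markers, LUM averaged 302 CPM in AsPC-1 controls and 105 CPM after siRNA, and COL1A1 averaged 33.2 and 41.9 CPM in PANC-1. COL1A1 averaged at most 0.79 CPM in AsPC-1, and LUM at most 0.07 CPM in PANC-1. COL1A2, DCN, PDGFRA and PDGFRB averaged at most 1.01 CPM in any group. The list of 4 endothelial markers summed to at most 0.91 CPM in any library. The part of these markers in the results was not tested. In such bulk samples, fewer cells of a kind and less RNA per cell cannot be told apart.

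The element at which ATF4 and C/EBP proteins bind together was looked for in the promoters, as the letters TGATGNAA on either strand. The promoter sequences came from RefSeq (GRCh38.p14) and reached from 250 bases before to 50 bases after each listed start. They covered 28 of the 30 genes, LARS and YARS not among them, with 47 windows. The letters occurred in 14 of the 28 genes (50%) and in 14 of the 47 windows. Among all genes of the RefSeq table they occurred in 1217 of 27305 (4.46%), and among all windows in 1270 of 35116 (3.62%). Because the 30 genes were picked as genes of the ATF4 response, the larger share may follow from that choice. The cyclic AMP response element TGACGTCA occurred in 0 of the 28 genes, compared with 2.25% of all genes, and the searches shared no match here. A match describes the letters of a window and is no evidence of binding. The stretches below are those of the genes that hold the letters and passed the test in either line, with the match in capitals, since their expression values follow. Each runs 5′ to 3′ on the strand of its gene, in GRCh38.p14 coordinates.
ASNS, chr7:97872461-97872516, minus strand: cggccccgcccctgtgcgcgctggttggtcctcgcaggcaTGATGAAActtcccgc
CHAC1, chr15:40953222-40953277, plus strand: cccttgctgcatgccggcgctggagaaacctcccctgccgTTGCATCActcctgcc
SLC7A1, chr13:29595666-29595721, minus strand: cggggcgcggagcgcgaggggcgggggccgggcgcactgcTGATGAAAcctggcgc
SLC1A5, chr19:46784896-46784951, minus strand: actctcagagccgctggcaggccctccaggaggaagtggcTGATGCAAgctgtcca
AARS, chr16:70289678-70289733, minus strand: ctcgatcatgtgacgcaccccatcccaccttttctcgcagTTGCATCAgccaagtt
CARS, chr11:3057410-3057465, minus strand: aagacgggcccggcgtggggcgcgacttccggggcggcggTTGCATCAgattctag
GARS, chr7:30594805-30594860, plus strand: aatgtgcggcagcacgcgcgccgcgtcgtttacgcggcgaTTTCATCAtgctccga
MARS, chr12:57488024-57488079, plus strand: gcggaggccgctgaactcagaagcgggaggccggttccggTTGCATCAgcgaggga
NARS, chr18:57621807-57621862, minus strand: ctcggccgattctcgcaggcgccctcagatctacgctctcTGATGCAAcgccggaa
TARS, chr5:33440927-33440982, plus strand: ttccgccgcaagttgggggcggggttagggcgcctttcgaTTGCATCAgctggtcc

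The match began within 5 bases of the listed start in CARS (-2), MARS (-4) and TARS (2), counting the start as 0 and bases before it as negative. In ASNS it began at -68, and in CHAC1 at -209. In SLC1A5 it began at -97 from a listed start that lies inside the annotated gene. The windows at the other listed starts of SLC1A5, further upstream, held 0 matches. The other 4 genes with the letters were ATF3, IARS, SLC1A4 and SLC3A2. IARS is the synthetase that held the letters and did not pass the test in either line.

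The first comparison asked how the 30 genes changed in AsPC-1 after MYEOV siRNA. Transcripts of 9 of the 12 synthetases were called lower, whereas CEBPB, TRIB3, ASNS, SESN2 and SLC7A1 were called higher. By DESeq2 the calls for TRIB3, ASNS, SESN2 and the synthetase AARS were lost. The ASNS value also rests on a shared locus, as set out below. Of 27 genes tested (STC2, VLDLR and SLC1A4 had too few counts), 5 were higher and 13 lower at an edgeR adjusted p under 0.05. The 18 called genes are 66.7% of those tested, where 32.9% of all 14304 genes were called, 16.6% higher and 16.3% lower. The median log2 fold change of the 27 genes was -0.09, and that of all tested genes was -0.0024.

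**Figure D1:**
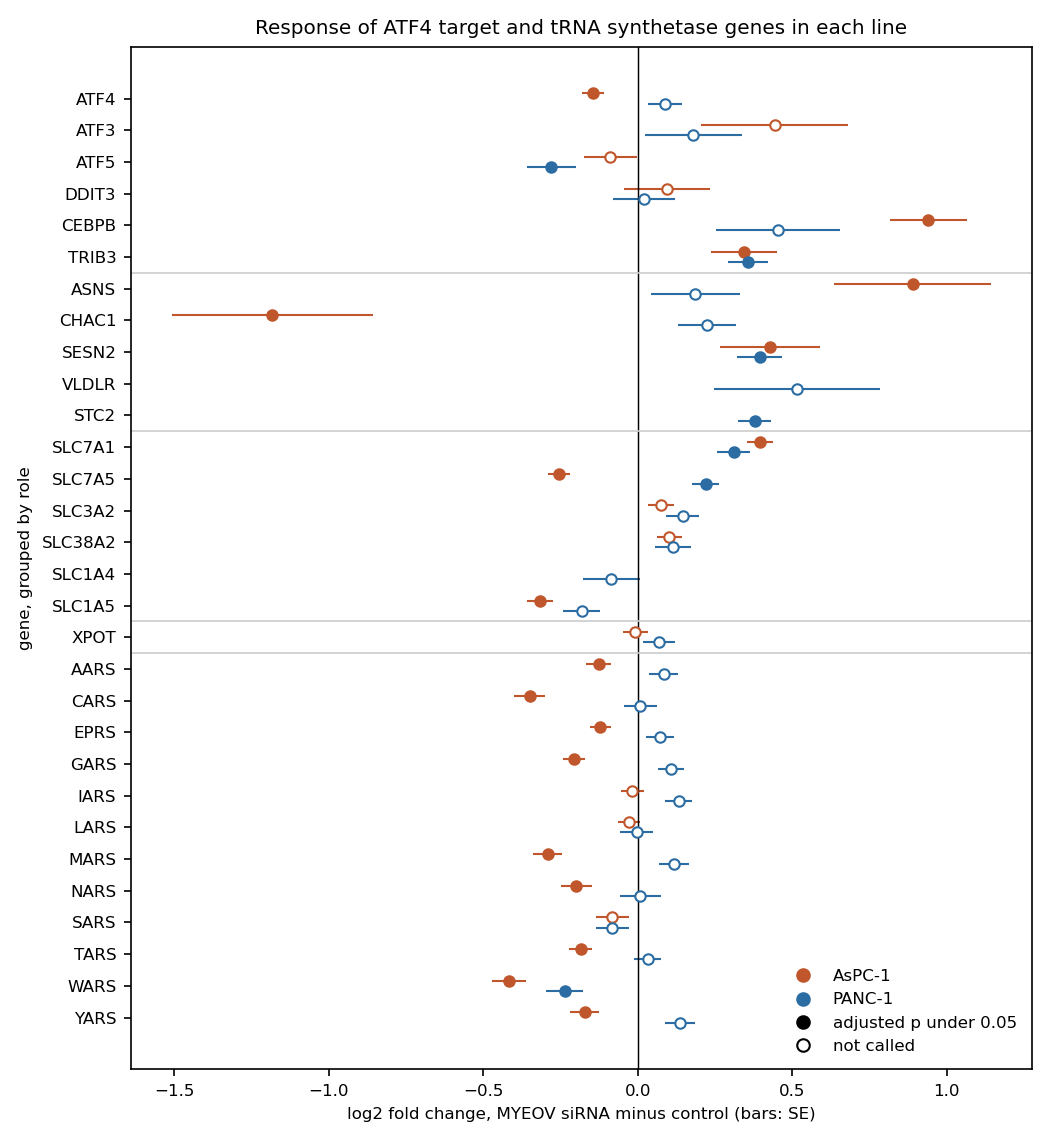
Log2 fold change after MYEOV siRNA for each of the 30 genes (vertical axis, grouped by role) in AsPC-1 (orange) and PANC-1 (blue). Bars are standard errors of the edgeR fit and filled points passed an adjusted p of 0.05. The 12 AsPC-1 synthetase points at the bottom all lie below 0, and 9 of the 12 PANC-1 points lie above 0. STC2, VLDLR and SLC1A4 have no AsPC-1 point because they were not tested there.

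A cytosolic synthetase joins an amino acid to its tRNA, and the 12 synthetases here serve some of the amino acids. In AsPC-1, 9 of the 12 fell, 0 rose, and all 12 estimates lay below 0 with a median of -0.18. The count of rises was also 0 at an unadjusted p under 0.05 and by DESeq2, which called 8 of the 12 lower. Their summed level was 2262 and 2243 CPM in the controls and 2052, 2041 and 2073 CPM after siRNA, so that every siRNA library lay below both controls. The changes were small next to that of MYEOV, which fell by 1.48 on the log2 scale.

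WARS, the tryptophanyl-tRNA synthetase, is also known as an interferon-inducible gene. It stood at 81.6 and 75.5 CPM in the AsPC-1 controls and at 56.6, 61.0 and 61.0 CPM after siRNA. The 3 siRNA libraries lay well below both controls, a log2 fold change of -0.42 (SE 0.06, adjusted p = 1.67e-06), which was the steepest fall among the 12 in this line. CARS, the cysteinyl-tRNA synthetase, stood at 81.4 and 78.0 CPM and then at 62.3, 64.1 and 63.2 CPM. Its groups did not overlap, and its log2 fold change was -0.35 (SE 0.05, adjusted p = 6.95e-06). MARS, the methionyl-tRNA synthetase, stood at 136.7 and 130.0 CPM in controls and at 105.8, 117 and 107.5 CPM after siRNA. It fell by 0.29 on the log2 scale (SE 0.05, adjusted p = 2.87e-05), with no overlap.

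GARS, the glycyl-tRNA synthetase, stood at 276 and 269.8 CPM in controls and at 240.1, 233 and 244 CPM after siRNA. Its log2 fold change was -0.21 (SE 0.04, adjusted p = 7.32e-05). TARS, the threonyl-tRNA synthetase, stood at 239.5 and 238 CPM and then at 211, 214 and 212 CPM. The groups did not overlap for either gene, and TARS fell by 0.18 on the log2 scale (-0.185, adjusted p = 0.000258). Further falls were called for NARS (-0.20), YARS (-0.17), AARS (-0.13) and EPRS (-0.12), the synthetases for asparagine, tyrosine, alanine, and glutamate with proline. For these 4 genes too the siRNA libraries lay below both controls, which makes 9 of 12 synthetases. Over all genes tested in AsPC-1, 25.4% had every siRNA library below both controls and 28.9% had every one above. The 3 synthetases that were not called, IARS (-0.02), LARS (-0.03) and SARS (-0.08), each had overlapping groups. Exon bases shared with other annotated genes made up 13.3% of MARS, 10.6% of WARS, 4.8% of YARS and 2.8% of CARS, and AARS, GARS, NARS and WARS each have 1 annotated pseudogene and CARS has 2, so that reads of these genes may be split in ways that the labels do not describe.

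**Figure D2:**
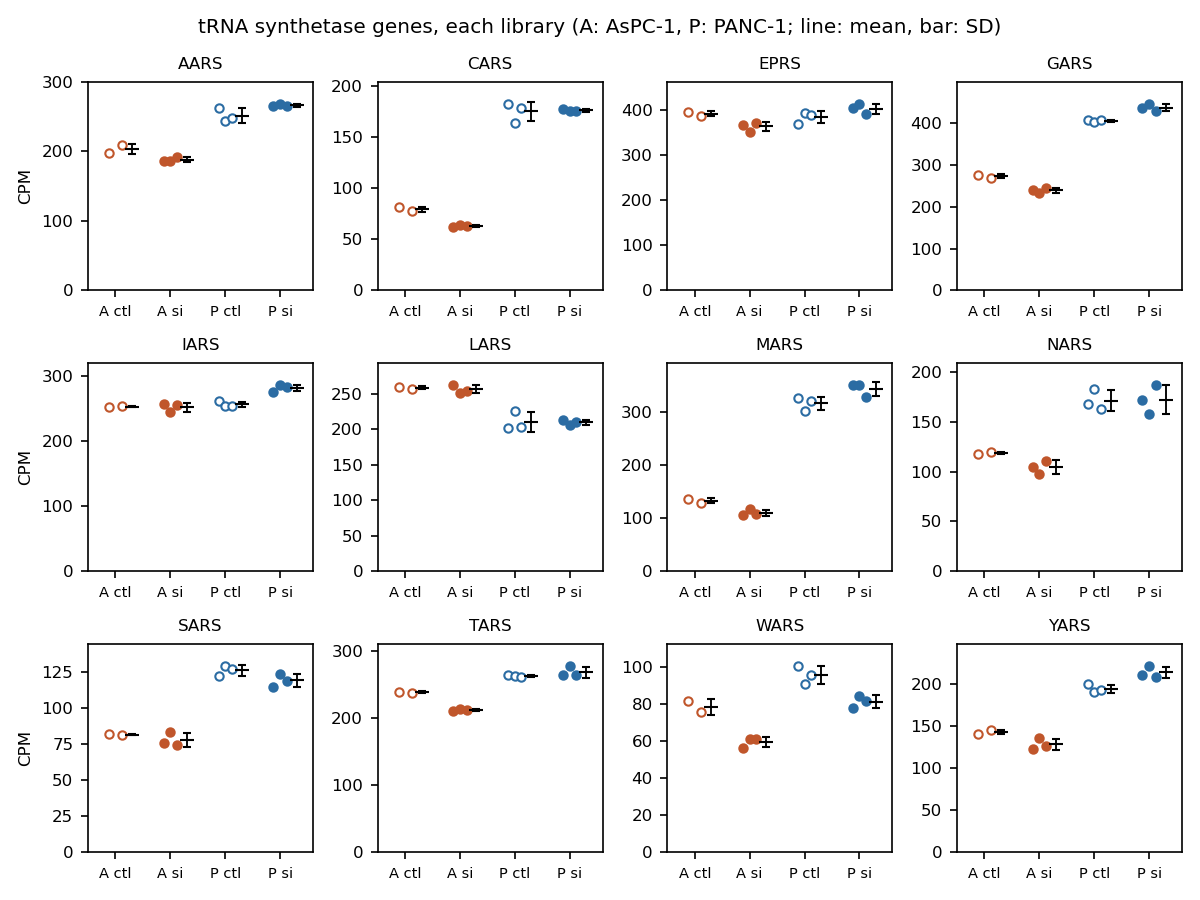
Level in CPM (vertical axis, starting at 0) of the 12 cytosolic tRNA synthetase genes in each library. Open points are controls, filled points MYEOV siRNA, orange AsPC-1 (A) and blue PANC-1 (P); lines are means and bars SD. In CARS, MARS and GARS the orange filled points sit below the open ones, and the blue points sit far above the orange.

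Synthetases outside the 30 genes were counted in the same fit. Of 12 other cytosolic synthetase genes and partners of the synthetase complex, 3 were lower in AsPC-1 (RARS -0.18, AIMP1 -0.17, FARSB -0.12) and 0 higher, with a median of -0.03. Of 17 mitochondrial synthetase genes, 2 were higher and 4 lower, with a median of 0.05. Among these, HARS2 fell by 0.35, MARS2 fell by 0.40 and CARS2 rose by 0.27 on the log2 scale. The 6 called mitochondrial genes are 35.3% of the 17, near the 32.9% of all genes called in AsPC-1. The called share of the other cytosolic list was smaller than that of all genes. The difference between these lists and the 12 members was not tested.

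Among the regulators, ATF4 itself stood at 230.2 and 229 CPM in the AsPC-1 controls and at 208, 212 and 209 CPM after siRNA. All 3 siRNA libraries lay below both controls, and ATF4 fell by 0.15 on the log2 scale (-0.145, SE 0.04, adjusted p = 0.00303). In 1 fit over all groups, which pools the spread of both lines, ATF4 did not pass (-0.13, adjusted p = 0.0901). CEBPB encodes a C/EBP factor that can pair with ATF4. It stood at 17.4 and 16.4 CPM in controls and at 24.9, 35.5 and 37.9 CPM after siRNA. The groups did not overlap, although the first siRNA library was well below the other two, and the log2 fold change was 0.94 (SE 0.13, adjusted p = 1.82e-06). A 231-base stretch of CEBPB, 22.3% of its coding bases, also carries exons of the antisense gene CEBPB-AS1, and the labels do not say whether counting used the strand.

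TRIB3, a pseudokinase that is induced by ATF4 and restrains it, stood at 13.0 and 12.9 CPM in controls and at 18.1, 16.1 and 15.5 CPM after siRNA. It rose by 0.34 on the log2 scale (SE 0.11, adjusted p = 0.0152). ATF3 (0.44, adjusted p = 0.164), ATF5 (-0.09, adjusted p = 0.475) and DDIT3 (0.09, adjusted p = 0.653), further bZIP factors of the stress response, did not pass the test. DDIT3 shares 33.5% of its coding bases with exons of other genes, MARS among them on the opposite strand, and ATF4 has 4 annotated pseudogenes. ATF3 was counted only 26 to 39 times per AsPC-1 library, and its siRNA libraries (3.10, 3.12 and 3.23 CPM) nevertheless lay above both controls (2.28 and 2.30 CPM).

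CHAC1 encodes an enzyme that degrades glutathione and is among the sharpest responders to ATF4. In AsPC-1 it was counted 30 and 25 times in the controls and 11, 9 and 16 times after siRNA, which is 2.28 and 2.21 CPM against 0.92, 0.74 and 1.32 CPM. The siRNA libraries lay below both controls, and the log2 fold change was -1.18 (SE 0.33, adjusted p = 0.00612), the largest fall among the 27 genes tested. SESN2, a sensor of leucine that restrains mTORC1, stood at 6.60 and 6.47 CPM in controls and at 9.29, 10.4 and 6.95 CPM after siRNA. It was called higher (0.43, SE 0.16, adjusted p = 0.0437), with the third siRNA library close to the controls.

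ASNS, the asparagine synthetase, was called higher in AsPC-1 (0.89, SE 0.25, adjusted p = 0.00799), but its value rests on a shared locus. Its counts were 21 and 25 in the controls and 38, 48 and 42 after siRNA. On the same strand, exons of the processed transcript AC079781.5 cover 1683 of the 1752 coding bases of ASNS (96.1%), and the labels do not say how reads in such shared bases were counted. That transcript was counted 40 and 22 times in the AsPC-1 controls and 13, 15 and 18 times after siRNA. The pair summed to 4.63 and 4.16 CPM in the controls and to 4.27, 5.18 and 4.96 CPM after siRNA, so that the groups overlapped once both were added.

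The transporters moved in both directions. SLC7A1, the importer of arginine and lysine, stood at 123.2 and 117 CPM in the AsPC-1 controls and at 162.5, 161 and 156 CPM after siRNA. It rose by 0.40 on the log2 scale (SE 0.04, adjusted p = 5.99e-08). SLC7A5, the light chain of the large neutral amino acid exchanger, stood at 278.5 and 273 CPM and then at 229, 237 and 235 CPM. It fell by 0.25 (SE 0.04, adjusted p = 3.98e-06), with no overlap between the groups.

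SLC1A5, an importer of glutamine, stood at 201 and 198 CPM in the AsPC-1 controls and at 157, 171 and 158 CPM after siRNA. It fell by 0.32 (SE 0.04, adjusted p = 1.77e-06), again with no overlap. SLC3A2, the heavy chain shared with SLC7A5, was not called (0.08, adjusted p = 0.184), nor was the small neutral amino acid importer SLC38A2 (0.10, adjusted p = 0.054). XPOT, which exports tRNA from the nucleus, stayed at -0.01 (approximate 95% interval -0.09 to 0.07).

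**Figure D3:**
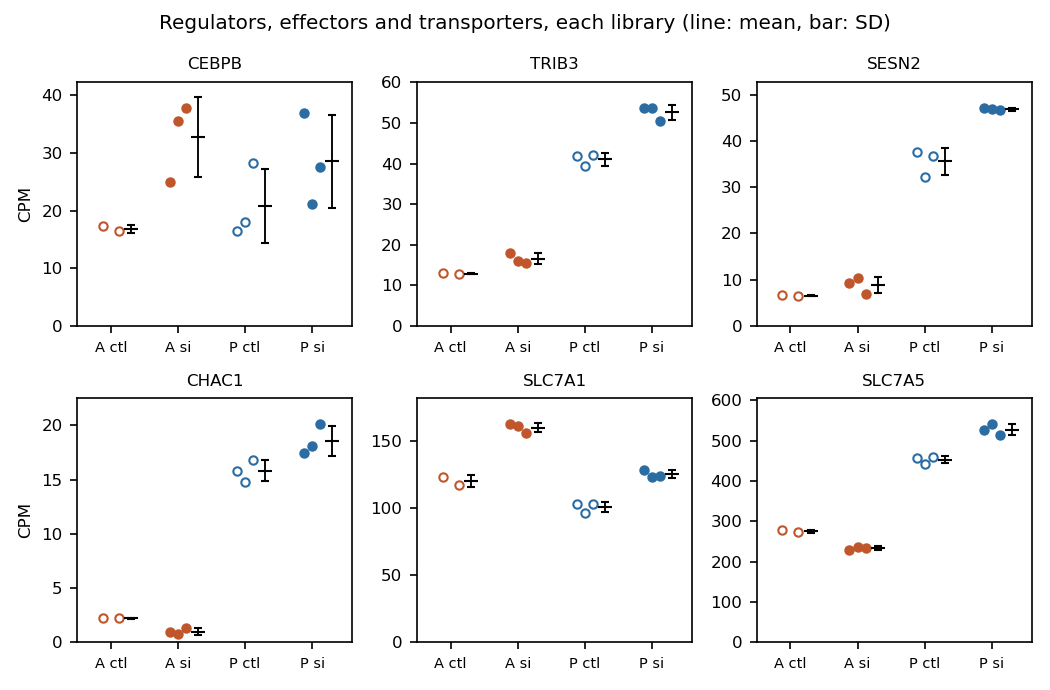
Level in CPM (vertical axis, starting at 0) of CEBPB, TRIB3, SESN2, CHAC1, SLC7A1 and SLC7A5 in each library, with open points for controls, filled points for MYEOV siRNA, lines for means and bars for SD. SLC7A1 was higher after siRNA in both lines without overlap, whereas SLC7A5 was lower in AsPC-1 and higher in PANC-1.

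Other genes of the pathway were also called in both directions in AsPC-1. Of 23 further ATF4 targets, 19 were tested, 2 were higher and 6 lower, with a median of -0.06. Their called share was 42.1%, and that of all 65 tested pathway genes outside the 30 was 29.2%, near the 32.9% of all genes. SLC7A11, the cystine importer, rose by 0.75 and EIF4EBP1, an inhibitor of translation initiation, rose by 0.60, while PCK2, the mitochondrial phosphoenolpyruvate carboxykinase, fell by 0.53. Of 12 genes for eIF2 kinases, eIF2 phosphatase subunits, the eIF2 exchange factor and the eIF2 subunit EIF2S1, only PPP1R15A was called. PPP1R15A, which directs the phosphatase to eIF2, rose by 0.44 (SE 0.07, adjusted p = 4.42e-05). Of 5 other amino acid transporters tested, SLC38A1 fell by 0.29 and the other 4 did not pass the test.

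Of the 18 calls in AsPC-1, 10 held whichever library was left out. The calls for TRIB3, ASNS, CHAC1, SESN2 and EPRS were lost without control replicate 1 (adjusted p = 0.0933, 0.152, 0.0627, 0.177 and 0.0873), and those for TRIB3, SESN2, AARS, EPRS, NARS and YARS without control replicate 2 (adjusted p = 0.0771, 0.17, 0.268, 0.0517, 0.0616 and 0.0927). TRIB3 and SESN2 were also lost without siRNA replicate 1 (adjusted p = 0.0713 and 0.096), and EPRS and SESN2 without siRNA replicate 2 (adjusted p = 0.0545 and 0.221). SLC38A2 passed without siRNA replicate 2 or 3 (adjusted p = 0.0207 and 0.0374).

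The second comparison asked the same of PANC-1. There STC2, SESN2, TRIB3, SLC7A1 and SLC7A5 rose, and ATF5 and WARS fell. All 30 genes were tested, 5 were higher and 2 lower. The 7 called genes are 23.3%, where 9.08% of all 14929 genes were called, 4.16% higher and 4.92% lower. The median log2 fold change of the 30 genes was 0.11 and that of all genes was -0.0014, with 24 of the 30 estimates above 0.

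STC2, a secreted glycoprotein made under endoplasmic reticulum stress, stood at 78.9, 76.8 and 79.7 CPM in the PANC-1 controls and at 104, 101 and 100.7 CPM after siRNA. It rose by 0.38 (SE 0.05, adjusted p = 0.000604), with no overlap. SESN2 stood at 37.7, 32.2 and 36.8 CPM in controls and at 47.2, 46.8 and 46.6 CPM after siRNA. The siRNA libraries were close to each other and above every control, and SESN2 rose by 0.39 (SE 0.07, adjusted p = 0.00393).

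TRIB3 stood at 41.9, 39.3 and 42.0 CPM in the PANC-1 controls and at 53.7, 53.8 and 50.4 CPM after siRNA. It rose by 0.36 (SE 0.06, adjusted p = 0.00358), with no overlap. ATF5 stood at 83.1, 80.0 and 72.1 CPM in controls and at 69.6, 66.9 and 56.8 CPM after siRNA. It was called lower (-0.28, SE 0.08, adjusted p = 0.0415), and 700 of its exon bases (23.7%) are shared with other annotated genes, among them NUP62 on the opposite strand. ATF4 itself stood at 233.6, 212 and 236 CPM and then at 232, 240.3 and 253 CPM. Its groups overlapped and it was not called (0.09, adjusted p = 0.372).

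SLC7A1 stood at 103.1, 96.6 and 102.9 CPM in the PANC-1 controls and at 128.5, 123 and 124 CPM after siRNA. It rose by 0.31 (SE 0.05, adjusted p = 0.00283). SLC7A5 stood at 456.5, 443 and 459 CPM and then at 526.5, 541 and 515 CPM. It rose by 0.22 (SE 0.04, adjusted p = 0.00587), and neither transporter had overlapping groups. CEBPB had a log2 fold change of 0.45 but its groups overlapped (16.4, 18.0 and 28.2 CPM against 37.0, 21.1 and 27.6 CPM) and it was not called (adjusted p = 0.188). CHAC1 stood at 15.8, 14.8 and 16.8 CPM and then at 17.5, 18.1 and 20.1 CPM, without overlap and without passing the test (0.22, adjusted p = 0.161). ASNS was not called (0.19, adjusted p = 0.488), and AC079781.5 had at most 3 counts in a PANC-1 library. For SLC1A5, which fell in AsPC-1, every PANC-1 siRNA library also lay below every control, without a call (-0.18, adjusted p = 0.0754). For SLC3A2 every siRNA library lay above every control, again without a call (0.14, adjusted p = 0.106). VLDLR had overlapping groups and was not called (0.51, adjusted p = 0.268).

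Among the 12 synthetases in PANC-1, 1 was lower, 0 were higher by edgeR or DESeq2 (4 at an unadjusted p under 0.05) and the median was 0.05. Their summed level was 2863, 2844 and 2842 CPM in controls and 2963, 3014 and 2943 CPM after siRNA. WARS was the synthetase that fell, from 100.6, 90.8 and 95.7 CPM to 77.8, 84.5 and 81.8 CPM (-0.24, SE 0.06, adjusted p = 0.0249). For GARS, MARS, IARS, YARS and AARS every siRNA library lay above every control, with estimates from 0.08 to 0.14 and adjusted p-values from 0.0794 (IARS) to 0.312 (AARS), none of which passed. Over all genes tested in PANC-1, 13.7% had every siRNA library above every control and 14.7% had every siRNA library below. Of the 12 other cytosolic synthetase genes 0 were called in PANC-1 by edgeR or DESeq2, also at an unadjusted p under 0.05. Of the 17 mitochondrial synthetase genes 0 were called by either tool, with 1 higher and 2 lower at an unadjusted p under 0.05 in edgeR. Of the 12 genes of the eIF2 machinery 0 were called by either tool, with 1 higher and 1 lower at that unadjusted p. Of 22 further ATF4 targets tested, 4 were higher and 0 lower (1 lower at an unadjusted p under 0.05, and 3 higher and 0 lower by DESeq2), with a median of 0.16. The 3 with the smallest adjusted p were GDF15 (0.37), a secreted stress factor, and PHGDH (0.37) and PSAT1 (0.29) of serine synthesis. The other was SLC7A11 (0.53), named here after its value was seen. These 4 are 18.2% of the 22 tested, compared with 9.08% of all genes.

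**Figure D4:**
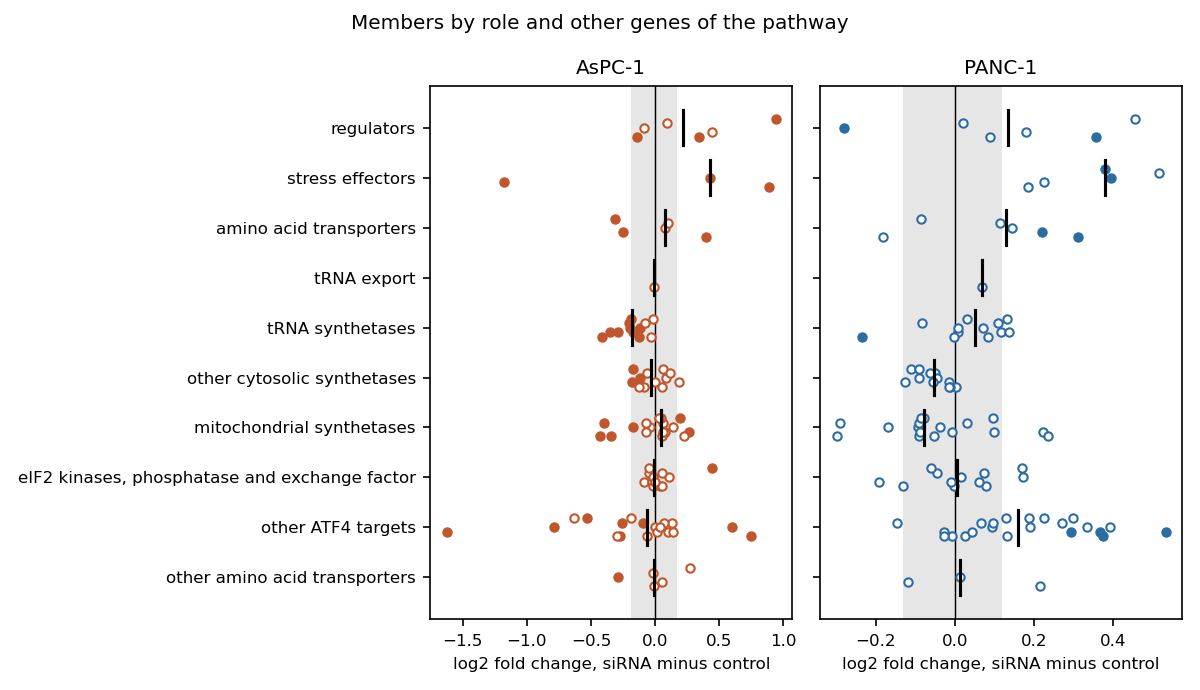
Log2 fold change after MYEOV siRNA (horizontal axis, of different range in each panel) for the 30 genes by role (upper 5 rows) and for other genes of the pathway (lower 5 rows), in AsPC-1 (left) and PANC-1 (right). Each point is a gene, filled where the adjusted p was under 0.05; black bars are medians and the grey band is the middle range between the quartiles of all tested genes. The row of eIF2 genes also holds the eIF2 subunit EIF2S1. The synthetase median lies at -0.18 on the left and at 0.05 on the right.

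The calls for TRIB3, SESN2, STC2, SLC7A1 and SLC7A5 in PANC-1 held whichever library was left out. The ATF5 call was lost without control replicate 1 or without any 1 of the 3 siRNA libraries (adjusted p = 0.14, 0.0583, 0.0652 and 0.16), and the WARS call without control replicate 1 or 3 or siRNA replicate 1 or 3 (adjusted p = 0.0857, 0.0766, 0.157 and 0.0733). CEBPB passed without control replicate 3 (0.74, adjusted p = 0.0353), and SLC38A2 (0.17, adjusted p = 0.0383) and SLC1A5 (-0.23, adjusted p = 0.00818) without control replicate 2.

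Both lines were then compared gene by gene, on libraries that they do not share. TRIB3, SESN2 and SLC7A1 were called higher in both lines and WARS lower in both. Of these 4 genes, SLC7A1 kept both calls whichever library was left out and by DESeq2. The AsPC-1 calls for TRIB3 and SESN2 were lost in 3 and 4 of the 5 fits without a library and by DESeq2 (adjusted p = 0.0969 and 0.166), and the PANC-1 call for WARS was lost in 4 of 6. SLC7A5 was called in opposite directions, lower in AsPC-1 and higher in PANC-1. Calls shared by both lines were not counted over all genes. Whether same or opposite calls were more frequent here than among all genes was therefore not tested. Another 8 genes were called in neither line (ATF3, DDIT3, SLC3A2, SLC38A2, XPOT, IARS, LARS and SARS).

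The difference in response itself was tested in 1 fit over the 4 groups, as the log2 fold change in PANC-1 minus that in AsPC-1. All 6 genes that passed were more positive in PANC-1, namely CHAC1, SLC7A5 and the synthetases MARS, CARS, GARS and YARS. The 6 are 20.0% of the 30 genes, where 4.36% of all 16680 genes passed, 2.07% more positive and 2.28% more negative in PANC-1. The median difference was 0.09 over the 30 genes and -0.02 over all genes.

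CHAC1 had the largest difference, 1.39 (SE 0.29, adjusted p = 0.00724), from a fall in AsPC-1 on 9 to 30 counts a library and a value of 0.22 in PANC-1 that did not pass. SLC7A5 differed by 0.46 (SE 0.06, adjusted p = 5.1e-05), with each line's own change called. MARS differed by 0.39 (SE 0.07, adjusted p = 0.0027) and GARS by 0.30 (SE 0.06, adjusted p = 0.00311). CARS differed by 0.34 (SE 0.08, adjusted p = 0.0097) and YARS by 0.29 (SE 0.07, adjusted p = 0.018). For these 4 synthetases the AsPC-1 fall was called and the PANC-1 value was between 0.01 and 0.14 without passing.

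Of the 12 synthetases, 11 had a more positive value in PANC-1, with a median difference of 0.19. TARS (0.20, adjusted p = 0.0559), AARS (0.20, adjusted p = 0.0927) and EPRS (0.18, adjusted p = 0.108) did not pass. WARS, which was called lower in both lines, had a difference of 0.17 with an approximate 95% interval from -0.0045 to 0.34. For TRIB3 the difference was -0.0003 (approximate 95% interval -0.16 to 0.16), and for SLC7A1 it was -0.10 (approximate 95% interval -0.24 to 0.04). ATF4 had a difference of 0.22 and did not pass (adjusted p = 0.0895). Among other ATF4 targets, SLC6A9 (1.70), PCK2 (0.51) and PSAT1 (0.34) passed, each more positive in PANC-1. These 3 are 13.6% of the 22 tested, compared with 4.36% of all genes. The difference calls for SLC7A5, MARS and GARS held whichever library was left out. Without AsPC-1 control replicate 1 those for CHAC1, CARS and YARS were lost (adjusted p = 0.0667, 0.0996 and 0.0696), and YARS was also lost without AsPC-1 control replicate 2 or AsPC-1 siRNA replicate 1 or 3 (adjusted p = 0.112, 0.0628 and 0.0536). AARS passed without PANC-1 control replicate 1 (adjusted p = 0.033), and EPRS, NARS and TARS passed without PANC-1 control replicate 2 (adjusted p = 0.0215, 0.0464 and 0.0184).

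A further comparison set the controls of both lines side by side. It uses the same control libraries as the comparisons above, and cell line and medium cannot be told apart in it. Most of the 30 genes were lower in AsPC-1 than in PANC-1, with 3 higher and 21 lower. The 24 called genes are 80.0%, where 76.4% of all 16182 genes were called, 36.1% higher and 40.3% lower in AsPC-1. A share of 80.0% is near that background, whereas the direction was uneven, with a median of -0.57 over the 30 genes and -0.06 over all genes.

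All 5 effectors were lower in AsPC-1 controls, with a median log2 difference of -2.79. STC2 was counted 0 times in all 5 AsPC-1 libraries and 3519 times in the 3 PANC-1 controls together. Against a floor of 3 counts over the AsPC-1 controls it was at least 641-fold higher in PANC-1. SLC1A4, a transporter of serine and alanine, had 9 counts in the AsPC-1 controls together and 675 in PANC-1, a ratio of 41.0 (95% interval 21.5 to 90.0, counting error only). VLDLR, a lipoprotein receptor, had 1 and 58 counts, a ratio of 31.7 with an interval from 5.47 to 1272. VLDLR shares 24.7% of its coding bases with exons of VLDLR-AS1.

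In AsPC-1 controls relative to PANC-1 controls, the log2 difference was -2.79 for CHAC1 (SE 0.17), -2.42 for SESN2 (SE 0.12), -1.77 for ATF5 (SE 0.09) and -1.65 for TRIB3 (SE 0.10), with adjusted p-values from 7e-11 to 5.1e-10. MARS (-1.23) and CARS (-1.11) were the synthetases furthest apart, and 8 of the 12 synthetases were lower in AsPC-1. LARS was the synthetase that was higher there (0.32, SE 0.06), together with the transporters SLC1A5 (0.81, SE 0.07) and SLC7A1 (0.27, SE 0.06). ASNS was called lower (-1.23), but summed with AC079781.5 it stood at 4.63 and 4.16 CPM in AsPC-1 controls and 4.76, 4.41 and 4.55 CPM in PANC-1 controls, which overlap. ATF4 (0.04, approximate 95% interval -0.08 to 0.16), CEBPB, SLC3A2, EPRS, IARS and TARS were not called. WARS (-0.26) was no longer called without AsPC-1 control replicate 2 (adjusted p = 0.0939), and the other 23 calls held whichever library was left out. CEBPB passed without PANC-1 control replicate 1 or 2 (adjusted p = 0.0389 and 0.0168), and TARS without PANC-1 control replicate 2 (adjusted p = 0.0128).

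**Figure D5:**
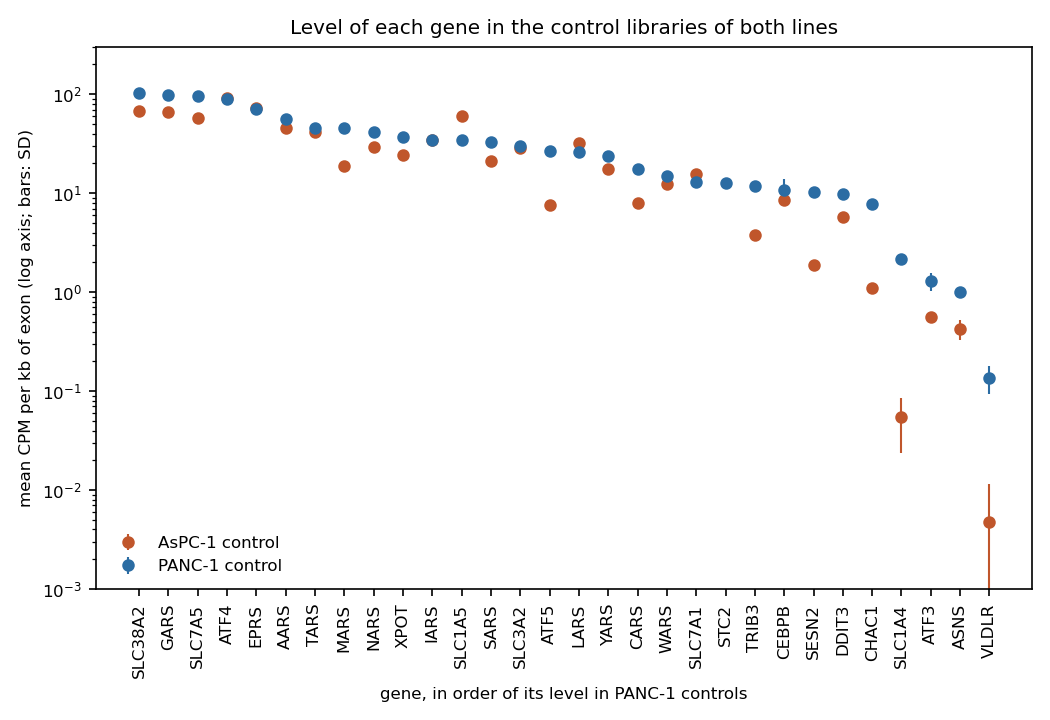
Mean level per kilobase of exon (CPM per kb, log axis) of each gene in AsPC-1 controls (orange, n = 2) and PANC-1 controls (blue, n = 3), in order of the PANC-1 level; bars are SD. ATF4, EPRS and IARS nearly coincide, and the distance widens towards CHAC1, SLC1A4 and VLDLR. STC2 has no AsPC-1 point because its counts there were 0.

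Per kilobase of exon, ATF4 had the highest level of the 30 genes in AsPC-1 controls, 91.3 CPM per kb, followed by EPRS (71.9), SLC38A2 (68.2) and GARS (65.8). In PANC-1 controls the order was SLC38A2 (102.7), GARS (97.7), SLC7A5 (95.5) and ATF4 (90.4). ATF4 held nearly the same level in both lines, and the lowest places went to ATF3, ASNS and VLDLR in PANC-1, at 1.31, 1.01 and 0.14 CPM per kb.

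The 14 genes whose promoter windows held TGATGNAA were set beside the 14 searched genes whose windows did not. In AsPC-1, 2 of the former rose and 8 fell, with a median of -0.19 (-0.185), while 3 of the latter rose and 4 fell, with a median of -0.05. Of the former 1 gene and of the latter 2 were not tested there. Over all genes tested in AsPC-1, whatever their promoter, 16.6% were higher and 16.3% lower. In PANC-1 the counts were 1 and 0 with the letters, and 4 and 2 without, with medians of 0.11 and 0.10. There 4.16% of all genes tested were higher and 4.92% lower. In AsPC-1, genes with and without the letters moved in both directions, and the part of the letters was not tested. The groups also differ in role. The synthetases AARS, CARS, GARS, IARS, MARS, NARS and TARS held the letters, whereas EPRS, SARS and WARS did not. Letters and role were not separated in these counts. The search reached only from 250 bases before to 50 bases after each listed start. Genes without a match may hold the element elsewhere. Of the 6 genes whose responses differed between lines, MARS, CARS, GARS and CHAC1 held the letters, SLC7A5 did not, and YARS was not searched.

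The 7 bases CTCATGT, chosen here because earlier results of these data had pointed to it, lie in an annotated 3′ UTR of 6 of the 30 genes (CHAC1, SLC7A5, SLC38A2, SLC1A5, CARS and TARS). Among tested genes with a 3′ UTR in AsPC-1, 16.4% held the word. Of the 6 genes, 5 fell in AsPC-1 and 0 fell in PANC-1. Over all genes with the word, 33.5% were lower in AsPC-1 and 17.1% in PANC-1, compared with 14.6% and 3.21% of genes without it. Higher in AsPC-1 were 13.2% of genes with the word and 20.1% without it, and in PANC-1 3.45% and 5.03%. Of the 13 of the 30 genes that fell in AsPC-1, 8 did not hold it (ATF4, AARS, EPRS, GARS, MARS, NARS, WARS and YARS). Because the word came from these same data, the shares above are no independent evidence about it. The part of the word in the falls of these genes was not tested.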

How the data were processed

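Per the submitters' processing notes, reads were handled with HISAT2, HTSeq and build hg19, with no versions. The authors deposited raw whole-number counts per gene, 1 table of 58735 Ensembl identifiers per library (11 libraries), with 0 rows that name no gene. Names and gene positions came from GENCODE release 29 (GRCh38), to which all 58735 identifiers matched. The strand setting and the rule for shared bases are not given in the sources used here.

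Groups were taken from sample titles. The 30 genes, the lists of other pathway genes and the tests were chosen with earlier results of these data known. Each comparison was fitted over all genes by the quasi-likelihood test of edgeR 4.0.16 (R 4.3.3), two-sided, after filterByExpr and TMM scaling, with adjustment by Benjamini and Hochberg's method and calls at 0.05. Each line was fitted alone, the controls of both lines together, and the difference in response over all 4 groups. A standard error is the absolute log2 fold change divided by the square root of F. The approximate 95% intervals on log2 values multiply it by the value for a normal distribution, so they are narrower than the edgeR test implies. For SLC38A2 in PANC-1 such an interval ran from 0.0015 to 0.2268, although the unadjusted edgeR p was 0.0675. CPM used TMM factors over 11 libraries. Every tested siRNA estimate of the 30 genes in each line is drawn in a figure, but not every value is in the text. Of each other pathway list, up to 3 called genes with the smallest adjusted p are named. In PANC-1 1 more (SLC7A11) is named, chosen after its value was seen.

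In counts simulated from the fitted spread, 200 genes above a level cut were changed, 67 of them by 0.3 (log2). Of these 67, 65.7% were recovered in AsPC-1 (14304 genes simulated) and 46.3% in PANC-1 (14929 genes). For the difference between lines, 20.9% of 67 were recovered (16680 genes). Genes with few counts, such as CHAC1, ASNS and ATF3 in AsPC-1, lay below the cut, so these rates do not cover them. Other settings were DESeq2 1.42.0, RLE or upper-quartile factors, a minimum of 5 CPM or none at all, a replicate block, a single fit of the 4 groups and the removal of each library. Summaries and figures used Python 3.11.15, pandas 2.3.3, numpy 2.4.6, scipy 1.17.1 and matplotlib 3.10.9. Motifs were matched letter by letter. Intervals on count ratios are exact 95% intervals.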

Additional observations from a re-analysis of the deposited data

Results flagged for a closer look

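The response to MYEOV siRNA differed between the lines for 6 of the 30 genes by edgeR's test of the difference itself. As PANC-1 minus AsPC-1 on the log2 scale, the differences were 1.39 for CHAC1, 0.46 for SLC7A5, 0.39 for MARS, 0.34 for CARS, 0.30 for GARS and 0.29 for YARS. SLC7A5 was the one gene of the 30 called in opposite directions in the lines. Fits without 1 library kept the calls for SLC7A5, MARS and GARS in all 11 cases, whereas CHAC1 and CARS each lost theirs in 1 case and YARS in 4. Groups of 2 or 3 libraries are too small for a test of single outlying libraries, so none was made.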

How the results depend on the processing

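No value of the 30 genes that passed its test changed sign under any alternative. The number of the 30 genes called, 18 in AsPC-1, 7 in PANC-1, 6 for the difference between lines and 24 between controls, ranged under the alternatives other than leaving out a library from 13 (DESeq2) to 19, from 6 to 10, from 3 to 7 and from 22 to 25. With 1 library left out the counts ranged from 12 to 19, from 5 to 9, from 3 to 9 and from 23 to 26. In AsPC-1, DESeq2 lost AARS, ASNS, SESN2 and TRIB3 (adjusted p = 0.0581, 0.0608, 0.166 and 0.0969) and gave CHAC1 no adjusted p (the 5 CPM filter left out CHAC1 and ASNS), and 1 fit over all groups lost ATF4, AARS, EPRS and NARS (adjusted p = 0.0901, 0.111, 0.107 and 0.073). That fit pools the spread of both lines, and in PANC-1 it added SLC3A2, SLC1A5 and IARS (adjusted p = 0.0445, 0.0288 and 0.0298). SLC38A2 passed in AsPC-1 under 5 of the settings, with adjusted p from 0.00854 to 0.0479. Without a low-count filter CEBPB passed in PANC-1, for the difference and between controls (adjusted p = 9.16e-05, 0.0119 and 0.0236). TARS passed for the difference with upper-quartile scaling, the filter of 5 CPM and DESeq2 (adjusted p = 0.0396, 0.0303 and 0.0333).

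The correlations of same-numbered deviations from the group means were -0.02 and -0.01 in AsPC-1 and -0.02, -0.36 and -0.09 in PANC-1. With only 2 AsPC-1 controls, their deviations mirror each other, so the AsPC-1 values can hardly show pairing. In PANC-1 the deviations cancel out within each group, which ties the correlations together. None of the same-numbered values there was positive. Differently numbered PANC-1 libraries ranged from -0.32 (control 1 with siRNA 3) to 0.33 (control 2 with siRNA 3). Whether libraries share a batch that the numbers do not follow was not tested, and a block by number cannot account for one. With the replicate block, 3 genes passed for the difference (MARS, CARS and YARS did not, adjusted p = 0.0616, 0.0868 and 0.122), 19 in AsPC-1 and 6 in PANC-1, where WARS was lost (adjusted p = 0.0953). Over all genes the replicate block gave 628 calls in PANC-1 in place of 1356, and 241 for the difference in place of 727. With 1 library left out, calls over all genes ranged from 538 (without siRNA replicate 1) to 1712 (without control replicate 2) in PANC-1. For the difference they ranged from 305 (without AsPC-1 control replicate 1, with 3 among the 30 genes) to 1056 (without PANC-1 control replicate 2).

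With 2 AsPC-1 controls, leaving out 1 leaves a lone control that is assumed to vary like the other libraries. Upper-quartile scaling moved the median of all genes between the controls of both lines from -0.06 to -0.14, with 3 of the 30 genes higher and 22 lower. The paired fit could not be made for the controls of different lines. In AsPC-1, CHAC1, ASNS and ATF3 had at most 48 counts per library, so that their values are the least precise of those tested.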
